A study of Mus musculus with 7 samples.

Results

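The 38 genes described here make sterols and fatty acids or control their making. They were taken by name from the 48709 genes of the deposited tables after the version suffix of each gene identifier was dropped. The rule names genes and uses no measured value, but the list was drawn up with earlier results of these data known. All 38 were found and all 38 passed the filter on low counts, which left 14907 genes to test. The list holds 5 regulators, 7 enzymes of the mevalonate steps, 11 enzymes from squalene to sterol, 1 sterol transport gene, 6 genes of fatty acid synthesis and 8 genes of fatty acid elongation, desaturation and activation. RNA was sequenced from mouse cochleae of postnatal day 1 that were kept as organ cultures in a serum-free medium with the N2 and B27 supplements, EGF and FGF. The cultures received solvent alone (DMSO), 200 nM TSA (trichostatin A, which blocks histone deacetylases) or 10 μM GSK-343 (an inhibitor of EZH2, the histone methyltransferase of Polycomb repressive complex 2) for 48 h. GFP-positive supporting cells, the non-sensory cells around the hair cells, were then sorted. The labels do not name the transgene or promoter behind the GFP, the mouse strain, or whether organs were pooled. There were 2 DMSO, 3 GSK-343 and 2 TSA libraries, and nothing in the labels says that they came from separate cultures or animals, so each p-value measures only the spread between these samples.

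Cells build cholesterol from acetyl-CoA through mevalonate, isoprenoid diphosphates, squalene and a series of ring-modified sterols, and they build fatty acids from the same acetyl-CoA through malonyl-CoA. Both routes are controlled by the sterol regulatory element-binding proteins (SREBPs), transcription factors held in the endoplasmic reticulum membrane by Scap and the Insig proteins while sterols are plentiful and carried to the Golgi for cleavage when sterols are scarce. SREBP2, from Srebf2, acts mainly on sterol genes, and the SREBP1c form from Srebf1 acts mainly on fatty acid genes. SREBPs bind sterol regulatory elements (SREs) and work with NF-Y, which binds CCAAT boxes, and with Sp1, which binds GC boxes.

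Promoters are shown for 4 members: Fasn, Mvd and Acly because they were lower with TSA than GSK-343, and Hmgcs1 because its promoter is the member promoter that holds the searched SRE letters. Each line gives the 150 bases just before the RefSeq transcription start (build GRCm38.p6), 5′ to 3′ on the gene's strand. Capitals mark the letters TCACNCCAC (an SRE), CCAAT or GGGCGG (a GC box) on either strand, and the last 2 CCAAT matches of Fasn overlap. The windows are chr11:120824548-120824697 on the minus strand for Fasn, chr8:122443423-122443572 on the minus strand for Mvd, chr11:100528001-100528150 on the minus strand for Acly and chr13:119690201-119690350 on the plus strand for Hmgcs1.
Fasn: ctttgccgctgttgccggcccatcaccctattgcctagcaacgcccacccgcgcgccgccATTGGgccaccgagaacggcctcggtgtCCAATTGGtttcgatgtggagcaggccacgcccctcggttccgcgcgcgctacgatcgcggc
Mvd: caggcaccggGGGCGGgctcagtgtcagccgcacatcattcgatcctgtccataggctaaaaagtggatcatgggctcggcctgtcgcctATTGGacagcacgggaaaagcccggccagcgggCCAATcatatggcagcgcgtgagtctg
Acly: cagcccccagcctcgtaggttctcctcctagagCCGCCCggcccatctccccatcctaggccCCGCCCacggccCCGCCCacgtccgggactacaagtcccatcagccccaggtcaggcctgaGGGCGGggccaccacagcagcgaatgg
Hmgcs1: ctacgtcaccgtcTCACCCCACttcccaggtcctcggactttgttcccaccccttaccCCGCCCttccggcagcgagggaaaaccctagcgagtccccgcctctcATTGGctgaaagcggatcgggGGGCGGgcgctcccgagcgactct
RefSeq windows from 250 bases before to 50 bases after the start were at hand for 31 of the 38 members. A gene was counted if any of its windows held a match, so genes with several starts had more chances. CCAAT was found for 26 members (83.9%), against 41.1% of all 27025 genes with windows and 42.8% of 10578 tested genes. GGGCGG was found in 25 of 31 (80.6%), against 38.2% of all and 68.8% of the tested genes. TCACNCCAC was found in 1 of 31 (3.23%, Hmgcs1), against 1.44% of all genes. In the printed 150 bases, Acly has 4 GC boxes and no CCAAT, Fasn has 3 CCAAT matches and no GC box, and Mvd has both kinds. In the longer windows all 3 genes have CCAAT, and Acly and Mvd but not Fasn have GGGCGG. A window without a match says nothing about binding of a factor.

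Total expected counts were 2724381 to 5974230 per library, and the members held 0.297% to 0.834% of them. The DMSO libraries differ from the others in more than treatment. The median gap between a gene's length and its effective length was 49 bases in each DMSO library but 208.21 to 212.69 bases in the 5 others, which shows 2 read layouts. Treatment and layout cannot be told apart in any comparison with DMSO. TSA and GSK-343 share a layout and are compared first. All 12 supporting cell markers were detected in each library, with summed levels of 7512 to 9378 CPM (counts scaled to library size, TMM-normalised) in DMSO, 10275 to 14443 with GSK-343 and 4364 to 5196 with TSA. The highest sums were carried by S100a1, at 3527 to 7850 CPM with GSK-343, 456 and 645 in DMSO, and 1238 and 1260 with TSA. Without it the other 11 summed to 6593 to 7169 CPM with GSK-343, 7056 and 8733 in DMSO, and 3104 and 3958 with TSA. The 8 neuron markers summed to 702 and 714 CPM with TSA, 86.4 to 309 with GSK-343 and 94.4 to 117 in DMSO, and the 10 hair cell markers to 631 and 2046, 443 to 1117, and 294 to 372. Mitochondrial ribosomal RNA made up 3.47% to 8.60% of counts with GSK-343, 10.4% and 18.1% with TSA, and 20.8% and 23.6% in DMSO. Mitochondrial ribosomal RNA and the sum of all 12 supporting cell markers did not overlap between any groups. Hair cell sums overlapped between TSA and GSK-343. Neuron sums, and supporting cell sums without S100a1, overlapped between GSK-343 and DMSO. The part of these values in the results on the members was not tested. Markers of other cell types were detected as well. In DMSO, with GSK-343 and with TSA in turn, the 8 mesenchyme markers summed to 164 and 175, 160 to 280, and 101 and 267 CPM. The 6 Schwann cell markers summed to 73.9 and 124, 78.6 to 206, and 107 and 169. The sums were 8.76 and 23.5, 3.89 to 34.7, and 4.76 and 4.99 for 7 immune cell markers. They were 11.9 and 19.0, 2.83 to 6.01, and 3.64 and 3.81 for 5 endothelial markers. The 5 adipocyte markers summed to at most 7.19 CPM in any library. In bulk RNA, fewer cells of a type and less RNA per cell cannot be told apart.

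The comparison of the 2 inhibitors asks whether blocking deacetylases and blocking EZH2 leave these genes at different levels. Of the 38 members, 8 were lower with TSA than GSK-343 and 0 were higher at an adjusted p under 0.05 (edgeR's quasi-likelihood test, Benjamini-Hochberg over all genes tested). Among all genes tested, 5.68% were lower and 5.04% higher. The 8 were Srebf2, Mvd, Tm7sf2, Nsdhl, Dhcr7, Acly, Fasn and Fads1, so each role but sterol transport held at least 1 of them. The log2 fold change was below 0 for 31 of 38 members, against 49.5% of all genes, and its median was −0.74 for the members and 0.00 for all genes. CPM of the groups did not overlap for 15 members lower with TSA and 5 higher, against 22.9% and 23.5% of all genes, and 16 members (42.1%) had an unadjusted p under 0.05, against 27.9% of all genes.

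Without TSA replicate 2, none of the 8 passed the threshold (adjusted p 0.0826 for Fasn to 0.272 for Tm7sf2), and calls fell across all genes too, to 83 higher and 79 lower. Without GSK-343 replicate 3, 2 of the 8 passed (Srebf2 and Fasn), without TSA replicate 1, 4 passed (Srebf2, Mvd, Tm7sf2 and Fasn), Acly missed without either DMSO library (0.0571 and 0.0565), and Fads1 missed without GSK-343 replicate 2 (0.0586). Scaled by total count, 3 members were lower (Srebf2, Mvd and Fasn) and 2 higher (Acss2 and Acacb), on a scale whose median over all genes was 0.20. Of all 14907 genes, 1020 were higher and 431 lower on that scale. The members' median was −0.45 without GSK-343 replicate 3, −0.42 with the replicate number as a block, −0.51 with total count scaling, and −0.33 on log2(TPM + 1), where the median of all genes was 0.24. The number of members below 0 lay between 26 and 32 of 38 under each alternative run.

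**Figure D1:**
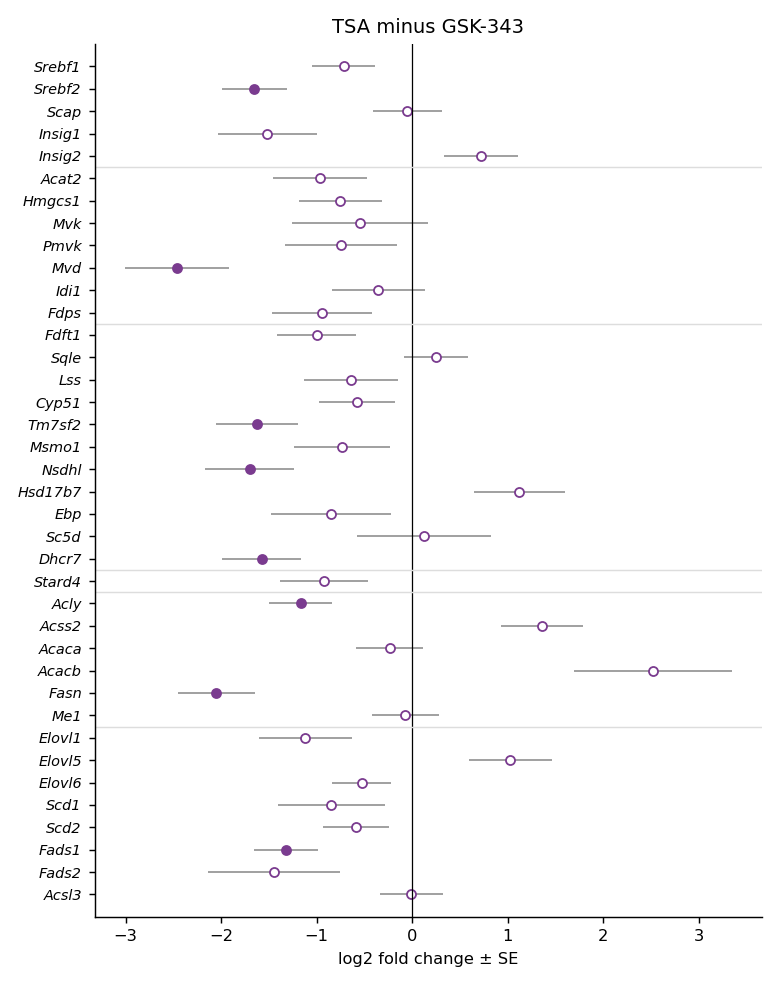
Log2 fold change of each of the 38 members between TSA and GSK-343 (x axis, with its standard error as a line), grouped by role from the regulators at the top to elongation, desaturation and activation at the bottom. Filled points are the 8 members with an adjusted p under 0.05, all to the left of 0, and 31 of 38 points lie below 0.

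Set against DMSO, the inhibitors gave unlike counts. Of the 38 members, 12 were higher and 4 lower with GSK-343 than in DMSO, against 18.1% and 21.5% of all genes tested, and their median log2 fold change was 0.71 against −0.04 for all genes. With TSA, 2 were higher and 5 lower than in DMSO, against 13.1% and 16.1% of all genes, with a median of 0.08 against −0.05. The log2 fold change was below 0 for 13 of 38 members with GSK-343 and for 17 of 38 with TSA, against 50.9% and 51.6% of all genes. Counting both directions, 42.1% of members were called with GSK-343, near the 39.6% of all genes, and 18.4% with TSA, where the share of all genes was 29.2%. Both comparisons use the same 2 DMSO libraries. CPM of the groups did not overlap for 14 members higher and 6 lower with GSK-343 (28.6% and 32.1% of all genes), and for 12 higher and 13 lower with TSA (33% and 35.6% of all genes). In all, 22 members (57.9%) were called in at least 1 of the 3 comparisons, against 49.4% of all genes, and 16 in none.

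These splits and medians depend on the libraries, the fit and the scale. The members' median for GSK-343 against DMSO was 0.42 without DMSO replicate 2, 0.33 without GSK-343 replicate 3, 0.32 with the replicate block, and 0.26 with GC and length trends removed, where 9 of the 16 calls were kept, and 1.17 with total count scaling and 1.30 on log2(TPM + 1). That for TSA against DMSO lay between −0.19 and 1.00 over the alternatives. With total count scaling, 19 members were higher and 1 lower with GSK-343 than in DMSO, and 11 higher and 1 lower with TSA. Of all 14907 genes on that scale, 3948 were higher and 2273 lower with GSK-343, and 3871 higher and 1307 lower with TSA. The medians over all genes moved to 0.42 and 0.65. Members were also tested as log2(TPM + 1) with limma, where TPM is the RSEM abundance that divides by transcript length. There 17 were higher and 0 lower with GSK-343 and 14 higher and 0 lower with TSA. Among all 19336 genes in that fit, 4122 were higher and 3164 lower with GSK-343, and 5039 higher and 2491 lower with TSA. Of the 31 calls of single members in the 3 comparisons, 0 turned direction under any of the 19 alternatives. The calls kept under all 19 were Acss2 with TSA against DMSO and Srebf2, Tm7sf2, Acly and Fads1 with GSK-343 against DMSO.

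**Figure D2:**
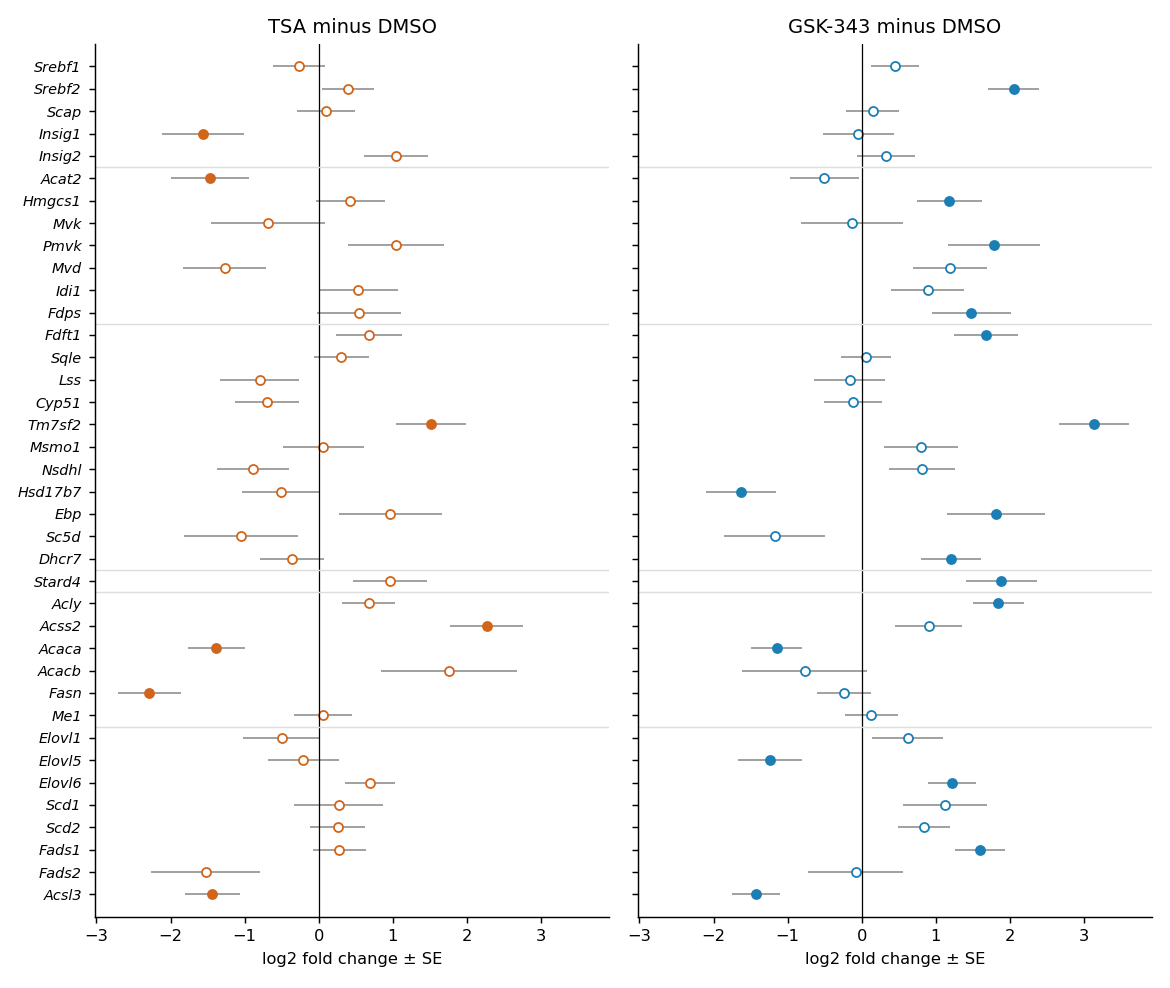
Log2 fold change with its standard error for each member, TSA against DMSO at left and GSK-343 against DMSO at right, in the same order of roles. Filled points have an adjusted p under 0.05: 2 higher and 5 lower with TSA, and 12 higher and 4 lower with GSK-343. Both panels use the same 2 DMSO libraries.

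Among the regulators, Srebf2, which encodes the SREBP of the sterol genes, stood apart with GSK-343. The gene (ENSMUSG00000022463.7, chr15:82147181-82205379, plus strand) stood at 65.8 and 88.9 CPM in DMSO, 285, 286 and 391 with GSK-343, and 122 and 82.4 with TSA. Every GSK-343 library was above every other library, while the TSA and DMSO libraries overlapped. The log2 fold change was −1.65 ± 0.34 (SE) for TSA against GSK-343 (adjusted p = 0.00967), 2.05 ± 0.35 for GSK-343 against DMSO (adjusted p = 0.000466) and 0.40 ± 0.35 for TSA against DMSO (adjusted p = 0.42). Srebf1, which encodes the SREBP1 forms, stood at 119.9 and 77.7 CPM in DMSO, 119, 136 and 150.1 with GSK-343, and 82.1 and 82.4 with TSA. Its TSA libraries were below all GSK-343 libraries, but no comparison passed the threshold (adjusted p from 0.172 to 0.608). The ratio of Srebf2 to Srebf1 counts was 0.549 and 1.14 in DMSO, 2.39, 2.10 and 2.60 with GSK-343, and 1.48 and 1.00 with TSA, so it was highest in the 3 GSK-343 libraries.

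Scap, the escort protein of the SREBPs, stood between 46.9 and 68.7 CPM in all 7 libraries, with adjusted p of at least 0.768 in each comparison. The 2 Insig genes, whose proteins retain the complex of Scap and SREBP in the endoplasmic reticulum, had values in opposite directions with TSA. Insig1, itself a target of SREBPs, stood at 42.2 and 18.0 CPM in DMSO, 30.3, 22.6 and 34.7 with GSK-343, and 9.24 and 11.1 with TSA. Both TSA libraries were below all others by CPM. In TPM, DMSO replicate 2 (8.29) was below both of them (9.29 and 9.34). Insig1 was lower with TSA than in DMSO (log2 fold change −1.56 ± 0.55, adjusted p = 0.044) and missed the threshold against GSK-343 (−1.52 ± 0.52, adjusted p = 0.0698). Of the 19 alternatives, 12 lost the call against DMSO. The call against DMSO was lost without GSK-343 replicate 2 (0.0527) or 3 (0.0669), DMSO replicate 1 (0.377), or TSA replicate 1 (0.211) or 2 (0.158). Insig2 stood at 24.7 and 26.6 CPM in DMSO, 25.8, 38.2 and 32.4 with GSK-343, and 45.9 and 60.1 with TSA. Here the TSA libraries were the highest, and neither comparison with TSA passed (adjusted p = 0.079 against DMSO and 0.236 against GSK-343). The ratio of Insig2 to Insig1 counts was 4.97 and 5.39 with TSA and between 0.585 and 1.69 in the other 5 libraries. This ratio was formed after the values were seen and was not tested.

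**Figure D3:**
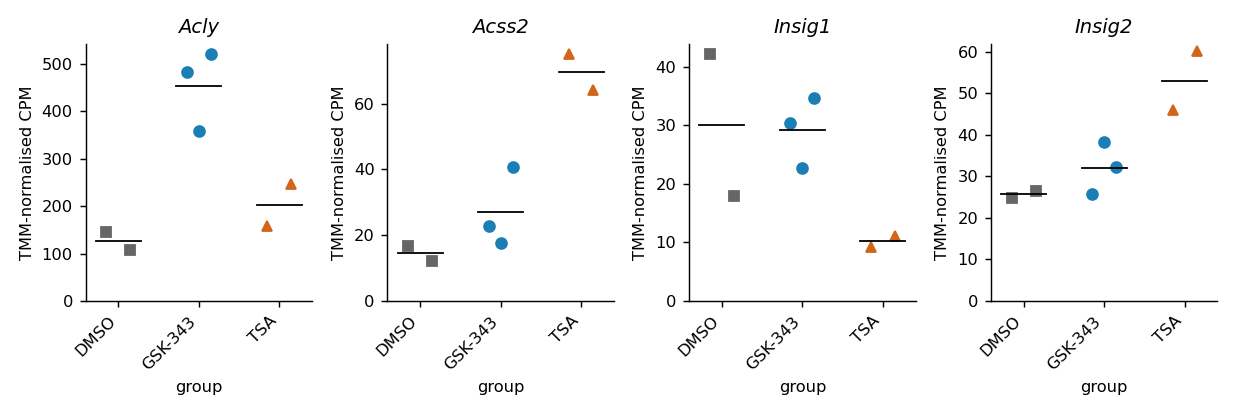
TMM-normalised CPM of Acly, Acss2, Insig1 and Insig2 in each library (y axes start at 0), by group, with lines at the group means (n = 2 DMSO, 3 GSK-343, 2 TSA). Acss2 and Insig2 are highest in both TSA libraries, Insig1 is lowest in them, and Acly is highest in the 3 GSK-343 libraries.

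Of the 7 mevalonate genes, 1 was lower with TSA than with GSK-343 (14.3%, against 5.68% of all genes). With GSK-343, 3 were higher than in DMSO (42.9%, against 18.1% of all genes). Mvd, mevalonate diphosphate decarboxylase (ENSMUSG00000006517.5, chr8:122433601-122443422, minus strand; promoter printed above), stood at 18.6 and 14.3 CPM in DMSO, 24.4, 39.4 and 49.7 with GSK-343, and 8.68 and 4.99 with TSA. By CPM the 3 groups did not overlap, with TSA lowest and GSK-343 highest. In TPM, TSA (14.0 and 6.72) overlapped DMSO (12.3 and 8.46), and GSK-343 was above both. TSA against GSK-343 gave −2.46 ± 0.54 (adjusted p = 0.0131), the lowest log2 fold change of any member in that comparison, and the comparisons with DMSO missed the threshold (TSA −1.27 ± 0.56, adjusted p = 0.102; GSK-343 1.20 ± 0.50, adjusted p = 0.0702).

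Hmgcs1, the synthase of HMG-CoA, stood at 68.3 and 84.2 CPM in DMSO, 147, 92.5 and 279.5 with GSK-343, and 73.7 and 132 with TSA. The GSK-343 libraries were above DMSO (log2 fold change 1.18 ± 0.44, adjusted p = 0.0445) but spread over a range that took in the higher TSA library, and the call was lost without either DMSO library or GSK-343 replicate 3 (0.195, 0.110 and 0.244). Pmvk, phosphomevalonate kinase, was higher with GSK-343 than in DMSO (1.79 ± 0.62, adjusted p = 0.0318), with 3.59 and 8.08 CPM in DMSO and 16.3 to 26.8 with GSK-343. Fdps, farnesyl diphosphate synthase, was also higher (1.48 ± 0.54, adjusted p = 0.0399), although 1 GSK-343 library (35.4 CPM) lay below DMSO replicate 2 (37.5 CPM). Of the 4208 exonic bases of Fdps, 1124 also belong to exons of Gm43738 on the same strand, so its count is less certain. Pmvk and Fdps both missed the threshold without DMSO replicate 1 or without GSK-343 replicate 3 (Pmvk 0.159 and 0.126, Fdps 0.262 and 0.152), and Fdps also without GSK-343 replicate 2 (0.0665).

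Acat2, a cytosolic thiolase that joins 2 acetyl-CoA at the entry to the pathway, was lower with TSA than in DMSO. It stood at 28.7 and 34.1 CPM in DMSO, 15.0, 26.3 and 25.2 with GSK-343, and 10.4 and 12.3 with TSA, in 3 groups that did not overlap. TSA against DMSO was the single comparison that passed (−1.47 ± 0.53, adjusted p = 0.0477), and it was lost when any 1 library other than GSK-343 replicate 1 was left out (0.0665 to 0.242). Acat2 has a close copy, Acat3, and RSEM divides reads that fit both, so its count is less certain. Mvk (mevalonate kinase) and Idi1 (isopentenyl diphosphate isomerase) were not called in any comparison, with ranges over the 7 libraries of 4.82 to 16.4 and 13.4 to 31.1 CPM.

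Of the 11 genes from squalene to sterol, 3 were lower with TSA than GSK-343 (27.3%, against 5.68% of all genes). Tm7sf2, a sterol C14 reductase (ENSMUSG00000024799.14, chr19:6062821-6068373, minus strand), stood at 16.8 and 8.08 CPM in DMSO, 92.9, 88.8 and 149 with GSK-343, and 43.4 and 28.2 with TSA. The groups did not overlap, and TSA lay between the others. It was the single member higher with both inhibitors than in DMSO (2.63% of members, against 9.29% of all genes). The log2 fold change was 3.14 ± 0.47 with GSK-343 (adjusted p = 0.000197) and 1.51 ± 0.47 with TSA (adjusted p = 0.0261), and −1.62 ± 0.43 for TSA against GSK-343 (adjusted p = 0.0288). The call for TSA against DMSO was lost without DMSO replicate 2 (0.168) or TSA replicate 1 (0.141). Of its 4403 exonic bases, 532 also belong to exons of Vps51 on the same strand, so the reads of that stretch were divided between the 2 genes.

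Nsdhl, which removes the C4 carboxyl group of sterol intermediates (ENSMUSG00000031349.4, chrX:72918557-72958514, plus strand), stood at 124 and 42.0 CPM in DMSO, 174, 92.7 and 173 with GSK-343, and 50.7 and 39.3 with TSA. TSA was below all GSK-343 libraries (−1.70 ± 0.46, adjusted p = 0.0313), and the DMSO libraries overlapped both other groups. Dhcr7, which makes cholesterol from its immediate precursor (ENSMUSG00000058454.15, chr7:143823145-143848410, plus strand), stood at 71.4 and 74.6 CPM in DMSO, 94.6, 159 and 253 with GSK-343, and 46.5 and 66.9 with TSA. By CPM the groups did not overlap, with TSA lowest. In TPM, both TSA libraries (68.1 and 70.4) were above DMSO (64.6 and 29.3). Dhcr7 was lower with TSA than with GSK-343 (−1.58 ± 0.41, adjusted p = 0.0273) and higher with GSK-343 than in DMSO (1.21 ± 0.41, adjusted p = 0.0277), while TSA against DMSO gave −0.36 ± 0.43 (adjusted p = 0.557). The call against DMSO was lost without either DMSO library (0.115 and 0.102) or without GSK-343 replicate 3 (0.145).

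Fdft1, squalene synthase, was higher with GSK-343 than in DMSO, at 128, 71.1 and 150.1 CPM against 26.1 and 46.7 (1.68 ± 0.43, adjusted p = 0.00629; 0.0715 without DMSO replicate 1). Of its 4227 exonic bases, 774 lie opposite exons of Ctsb. Ebp, the sterol isomerase, was higher as well (10.5 to 23.1 CPM against 4.04 and 5.74; 1.81 ± 0.66, adjusted p = 0.0391), and its call was lost when any DMSO library, GSK-343 replicate 1 or GSK-343 replicate 3 was left out (0.0544 to 0.147). Hsd17b7, a sterol 3-keto reductase, was lower with GSK-343 than in DMSO, at 16.1, 8.52 and 11.3 CPM against 32.8 and 41.7 (−1.63 ± 0.47, adjusted p = 0.0129; 0.0747 without DMSO replicate 2). The other members of this group, Sqle (squalene epoxidase), Lss (lanosterol synthase), Cyp51 (lanosterol demethylase), Msmo1 (sterol C4 methyl oxidase) and Sc5d (sterol C5 desaturase), were called in 0 of 3 comparisons. Lss ranged from 11.8 to 33.2 CPM, Cyp51 from 25.8 to 64.7, Msmo1 from 23.0 to 118 and Sc5d from 2.83 to 18.0. Sqle, which catalyses the first oxygenation of the sterol branch, stood between 114 and 202 CPM in all libraries, with adjusted p of at least 0.571.

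The sterol carrier gene Stard4 stood at 50.1 and 56.6 CPM in DMSO, 349.6, 94.7 and 148 with GSK-343, and 88.5 and 119.7 with TSA. All treated libraries were above DMSO. GSK-343 against DMSO passed (1.89 ± 0.48, adjusted p = 0.00638; 0.0568 without DMSO replicate 1), and TSA against DMSO did not (0.96 ± 0.50, adjusted p = 0.158).

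**Figure D4:**
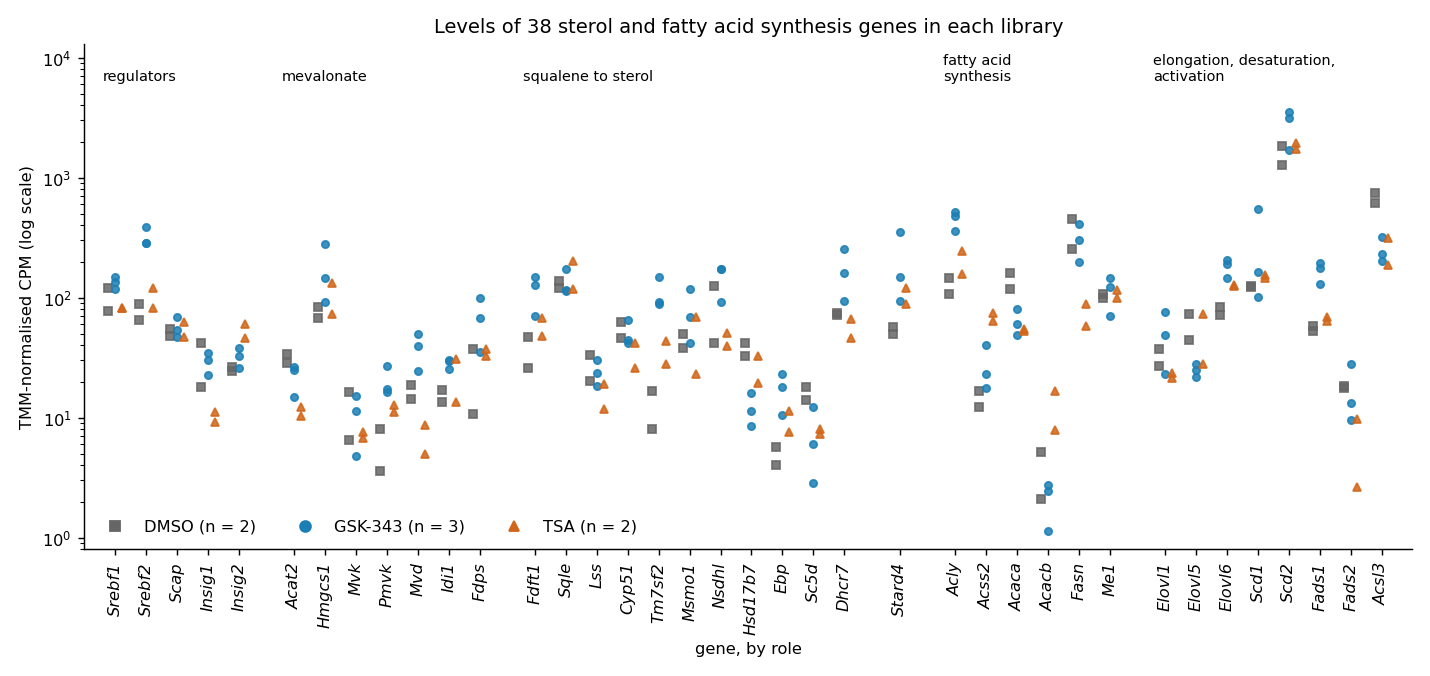
TMM-normalised CPM of each member in each library (log y axis), with members grouped by role along the x axis. Stard4, the sterol transport gene, stands alone between the sterol and the fatty acid groups. Scd2 has the highest CPM in each library (1273 to 3510.2) and Mvd, Insig1 and Fasn are examples of members with both TSA points below all other points.

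The 2 enzymes that supply cytosolic acetyl-CoA had unlike patterns. Acly, ATP citrate lyase, makes it from citrate (ENSMUSG00000020917.17, chr11:100476353-100528000, minus strand), and stood at 146 and 107 CPM in DMSO, 483, 358 and 522 with GSK-343, and 158 and 246 with TSA. All GSK-343 libraries were above all others. GSK-343 against DMSO gave 1.85 ± 0.34 (adjusted p = 0.000937), TSA against GSK-343 −1.17 ± 0.33 (adjusted p = 0.0374) and TSA against DMSO 0.68 ± 0.36 (adjusted p = 0.166). Acss2, which makes acetyl-CoA from free acetate, stood at 16.6 and 12.3 CPM in DMSO, 22.9, 17.5 and 40.7 with GSK-343, and 75.1 and 64.2 with TSA. Both TSA libraries were above all others. TSA against DMSO gave 2.27 ± 0.50 (adjusted p = 0.00448), and TSA against GSK-343 missed the threshold (1.36 ± 0.43, adjusted p = 0.0531) but passed it under 7 of the 19 alternatives. The ratio of Acss2 to Acly counts was 0.476 and 0.261 with TSA, 0.114 and 0.115 in DMSO, and 0.0475, 0.0489 and 0.0780 with GSK-343, in 3 groups that did not overlap. This ratio was also formed after the values were seen and was not tested. Parts of the exons of Acss2 (395 and 197 of 10163 bases) lie opposite exons of Gss and Ggt7, and the sources used here do not give the strand setting of the counting.

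Fasn, fatty acid synthase, was lower with TSA than in both other groups by count. The gene (ENSMUSG00000025153.9, chr11:120805846-120824547, minus strand) stood at 456 and 256 CPM in DMSO, 199.7, 299.9 and 408 with GSK-343, and 87.9 and 58.1 with TSA. The DMSO and GSK-343 libraries overlapped, and both TSA libraries were below all of them. TSA against GSK-343 gave −2.05 ± 0.40 (adjusted p = 0.0082), TSA against DMSO −2.28 ± 0.42 (adjusted p = 0.00158) and GSK-343 against DMSO −0.23 ± 0.37 (adjusted p = 0.639). The call against DMSO held with each library left out.

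In TPM, however, Fasn stood at 64.4 and 30.5 in DMSO, 166, 228 and 265 with GSK-343, and 57.5 and 28.3 with TSA. On that scale TSA overlapped DMSO, and GSK-343 was above both. With limma on log2(TPM + 1) the fold change of TSA against DMSO was −0.13 ± 0.49 (adjusted p = 0.854), of GSK-343 against DMSO 2.25 ± 0.45 (adjusted p = 0.00851) and of TSA against GSK-343 −2.39 ± 0.45 (adjusted p = 0.0377; 0.0526 with a pseudocount of 0.1 and 0.0926 with no filter). The mean transcript length that RSEM assigned to Fasn was 8030 and 8489 bases in DMSO, 2561, 2539 and 2742 with GSK-343, and 4030 and 4493 with TSA. The annotation (GENCODE M21) lists 6 Fasn transcripts, of which those of 10050 and 8333 bases have 43 exons each and the other 4 are 636 to 976 bases long, so the mean depends on how reads were divided between long and short transcripts. Among the 31 members with several transcripts, Fasn was the single one whose mean length differed at least 1.5-fold, without overlap, between TSA and GSK-343, where 1.84% of 10787 such genes were longer and 0.992% shorter with TSA. Against DMSO, Fasn was the single member shorter with TSA and with GSK-343 by this rule (3.78% and 4.18% of genes), while Srebf1 and Scap were longer with both and Ebp with GSK-343 (14% and 12.2% of genes). TSA was below GSK-343 on both scales, and the differences from DMSO took other values on each.

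**Figure D5:**
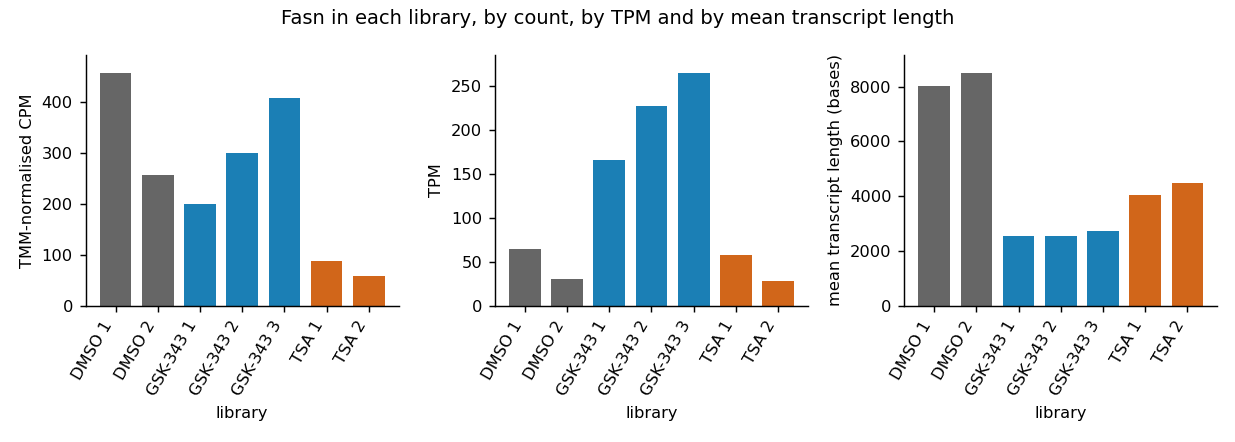
Fasn in each of the 7 libraries, as TMM-normalised CPM (left), as TPM (middle) and as the mean transcript length in bases that RSEM assigned (right), with bars from 0. Both TSA bars are the lowest by CPM (87.9 and 58.1), while by TPM the TSA and DMSO bars overlap. The lengths are longest in DMSO (8030 and 8489 bases), shortest with GSK-343 (2539 to 2742) and between these with TSA.

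Acaca, the main cytosolic acetyl-CoA carboxylase, stood at 161 and 119 CPM in DMSO, 48.7, 79.8 and 60.6 with GSK-343, and 52.4 and 54.8 with TSA. Both treated groups were below DMSO and overlapped each other. The log2 fold change was −1.15 ± 0.34 with GSK-343 (adjusted p = 0.0146) and −1.38 ± 0.39 with TSA (adjusted p = 0.0152). The calls were lost without DMSO replicate 1 (0.143 and 0.107), and that for TSA also without TSA replicate 1 or 2 (0.0961 and 0.0929). Acacb, the carboxylase of the outer mitochondrial membrane, was the member with the lowest counts (as few as 4 in a library), at 5.17 and 2.09 CPM in DMSO, 1.13, 2.43 and 2.77 with GSK-343, and 16.8 and 7.92 with TSA. The TSA libraries were the highest, but no comparison passed (2.52 ± 0.83 against GSK-343, adjusted p = 0.0617; 1.75 ± 0.92 against DMSO, adjusted p = 0.164). Me1, the cytosolic malic enzyme that supplies NADPH, stood between 69.9 and 145 CPM, with adjusted p of at least 0.797 in each comparison.

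Of the 8 genes of elongation, desaturation and activation, 1 was lower with TSA than with GSK-343 (12.5%, against 5.68% of all genes). Fads1, the delta-5 desaturase (ENSMUSG00000010663.4, chr19:10182888-10196877, plus strand), stood at 52.3 and 57.9 CPM in DMSO, 131, 177 and 194 with GSK-343, and 64.1 and 69.5 with TSA. The GSK-343 libraries were above all others. TSA against GSK-343 gave −1.32 ± 0.34 (adjusted p = 0.0237), GSK-343 against DMSO 1.60 ± 0.34 (adjusted p = 0.00213) and TSA against DMSO 0.28 ± 0.35 (adjusted p = 0.586). Fads2, the delta-6 desaturase, stood at 17.5 and 18.5 CPM in DMSO, 9.63, 13.1 and 28.2 with GSK-343, and 9.80 and 2.64 with TSA. It was not called in any comparison.

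Elovl6, which elongates saturated fatty acids of medium length, was higher with GSK-343 than in DMSO, at 147, 207 and 192 CPM against 84.2 and 71.9 (1.22 ± 0.32, adjusted p = 0.00745; 0.0693 without DMSO replicate 2). With TSA it stood at 127 and 125 CPM, between the other groups. Elovl5, which elongates polyunsaturated fatty acids, was lower with GSK-343 than in DMSO, at 21.8, 25.1 and 28.0 CPM against 73.4 and 44.3 (−1.24 ± 0.43, adjusted p = 0.0342), and this call was lost without DMSO replicate 1 (0.292) or any 1 of the GSK-343 libraries (0.0582 to 0.0688). The TSA libraries of Elovl5 lay far apart, at 28.3 and 73.6 CPM. Elovl1, an elongase of very long chains, stood between 21.4 and 75.4 CPM and was called in 0 of 3 comparisons.

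Acsl3, which activates fatty acids for lipid droplets and membranes, stood at 612 and 748 CPM in DMSO, 233, 203 and 323 with GSK-343, and 187 and 317 with TSA. Both treated groups were below DMSO by the same amount (−1.43 ± 0.32 with GSK-343, adjusted p = 0.00325; −1.43 ± 0.37 with TSA, adjusted p = 0.01), and overlapped each other. The TSA call was lost without DMSO replicate 2 (0.0734) or TSA replicate 1 (0.110), and in TPM the change with TSA was −0.17 (adjusted p = 0.674). Of its exonic bases, 244 of 4357 also belong to Utp14b on the same strand. Acaca and Acsl3 were the 2 members lower with both inhibitors than in DMSO (5.26%, against 11.8% of all genes). In each form of limma on TPM, 0 members were lower with either inhibitor than in DMSO. The calls of Acaca and Acsl3 with GSK-343 and with TSA were therefore lost on that scale.

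The stearoyl-CoA desaturases Scd1 and Scd2, which make monounsaturated fatty acids, are close copies, and RSEM divides the reads that fit both. Scd2 stood at 1822 and 1273 CPM in DMSO, 3510.2, 1689.9 and 3117 with GSK-343, and 1741 and 1959 with TSA. Scd1 stood at 126 and 123 CPM in DMSO, 102, 164 and 544 with GSK-343, and 155 and 145 with TSA. Neither was called in any comparison, and the GSK-343 libraries spread widely. Per length, Scd2 ranked first among the members in 6 of 7 libraries, with 379.8 to 1307 TPM. In DMSO replicate 2, Acsl3 ranked first with 267 TPM and Scd2 second with 237 TPM.

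Of 67 further genes of lipid handling, 65 were tested. With TSA against GSK-343, 4 were higher and 3 lower, or 6.15% and 4.62% against 5.04% and 5.68% of all genes, with a median log2 fold change of −0.03. With TSA against DMSO 23 were higher and 6 lower (35.4% and 9.23%, against 13.1% and 16.1% of all genes). With GSK-343 against DMSO 24 were higher and 8 lower (36.9% and 12.3%, against 18.1% and 21.5% of all genes). The 10 genes of SREBP processing and sterol sensing had 0 calls between the inhibitors. Of the 6 further isoprenoid and sterol enzymes, Hsd3b7 of bile acid synthesis was lower with TSA (7.56 and 12.0 CPM) than with GSK-343 (39.9 to 50.4 CPM; −2.22 ± 0.51, adjusted p = 0.0175), and it was at 0 in both DMSO libraries. The 8 tested genes of LXR action, sterol storage and efflux had 0 calls between the inhibitors, the lowest adjusted p being that of the cholesterol acyltransferase Soat1 (1.58 ± 0.61, adjusted p = 0.105).

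Of the 19 other genes of fatty acid synthesis and activation, 3 were higher with TSA than GSK-343 and 1 was lower. These are 15.8% and 5.26%, against 5.04% and 5.68% of all genes. Elovl2, an elongase of polyunsaturated fatty acids, stood at 19.0 and 37.5 CPM with TSA and 1.22 to 3.68 with GSK-343 (3.60 ± 0.79, adjusted p = 0.0125). Acsl6, an acyl-CoA synthetase of the brain, stood at 4.94 and 4.69 CPM in DMSO, 0.567, 0 and 0.231 with GSK-343, and 11.8 and 10.6 with TSA (adjusted p = 0.00859 for TSA against GSK-343). Mlxipl, which encodes the carbohydrate response factor ChREBP, was higher with TSA (1.55 ± 0.47, adjusted p = 0.0478). Mid1ip1, an activator of acetyl-CoA carboxylase, was lower (−1.92 ± 0.50, adjusted p = 0.026), with 47.6 and 15.8 CPM against 66.6 to 158. Of the 11 genes of glycerolipid synthesis, Agpat2, a lysophosphatidic acid acyltransferase, was lower (−1.68 ± 0.38, adjusted p = 0.0151). The acyltransferases next in that list missed the threshold in opposite directions (Gpam 1.39 ± 0.44, adjusted p = 0.0543; Agpat3 −1.21 ± 0.40, adjusted p = 0.0617). Of the 11 genes of fatty acid oxidation, Ppargc1a, a coactivator of mitochondrial genes, was higher (3.96 ± 0.78, adjusted p = 0.00845), at 17.6 and 16.4 CPM against 0.283 to 1.95. Hadha, a subunit of the mitochondrial trifunctional protein, had the next smallest adjusted p of that list and lay in the other direction, at 122 and 134 CPM with TSA against 219 to 299 with GSK-343 (−1.02 ± 0.32, adjusted p = 0.052), and Cpt1a, the carnitine acyltransferase of the mitochondrial surface, followed (0.84 ± 0.41, adjusted p = 0.195). The sum of the neuron markers given above was also highest in the TSA libraries, but this did not hold for every marker. In both TSA libraries, Stmn2, Snap25, Nefl and Map2 each stood above all DMSO and GSK-343 libraries. The TSA values of Syt1 and Tubb3 overlapped GSK-343, and those of Tubb3, Gap43 and Elavl4 overlapped DMSO. The part of neuron RNA in the values of Acsl6, Elovl2 and Ppargc1a was not tested.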

How the data were processed

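RNA from 7 libraries of sorted supporting cells was measured. The submitters' processing notes name STAR, RSEM, DESeq2 and mm10; the annotation release and strand setting are not given in the sources used here. The expected counts deposited by the authors share ambiguous reads between genes and are not scaled between libraries, per the file headers. TPM values, deposited beside them, are RSEM abundances corrected for effective length. Gene names came from GENCODE M21, which matched 48349 of 48709 identifiers (41341 with the same version, 360 unmatched), and promoters from RefSeq (GRCm38.p6). No column of other samples was found. 

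Expected counts were rounded and fitted with edgeR 4.0.16 in R 4.3.3 (TMM, filterByExpr, 1 model of 3 group means over all 7 libraries with 4 residual degrees of freedom, robust quasi-likelihood F test, Benjamini-Hochberg over 14907 genes, threshold 0.05). Each SE is the size of the log2 fold change divided by the root of its F statistic. TMM factors were 0.754 and 0.760 for DMSO, 1.02 to 1.08 for GSK-343, and 1.16 and 1.32 for TSA, and the biological coefficient of variation was 0.43. A count of 3 equals 0.502 to 1.10 CPM before TMM scaling. Of the members, 36 had at least 10 counts in every library. Groups of this size are too small for permutation tests. Replicates were checked for duplicates, and the scripts were tested on simulated data. Recovery is given for TSA against GSK-343, TSA against DMSO and GSK-343 against DMSO in turn. Of simulated 2-fold changes, 7.46%, 0% and 5.97% were called, and of 4-fold changes 47.8%, 35.8% and 47.8%. A member without a call can therefore still differ between groups.

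All members were accounted for. Values in every library are given for members called between the inhibitors or in both comparisons with DMSO and for the regulators. The other members with values in every library or by range, and the pair ratios, were picked for description after the values were seen. Outside the members, up to 3 genes per list are named, by smallest adjusted p between the inhibitors, and Mlxipl, next in its list, because it was called. A gene that falls under the rule is not reported here. The members, lists and rules were chosen with earlier results of these data known. Alternatives were other scalings, no filter, only the groups compared, DESeq2 1.42.0, limma 3.58.1 on TPM, a replicate block, removal of GC and length trends, protein-coding nuclear genes alone, and each library left out. A prior without robust estimation was added after the data were seen.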

Additional observations from a re-analysis of the deposited data

How the results depend on the processing

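Of 589 values of the 31 called members under the alternatives, 425 kept their call, 164 lost it and 0 turned direction. Counts over all genes also changed with the scale, as given above. Counts of called members changed by more than 1.5 times as follows, and the cause was not tested. For TSA against GSK-343 (8 lower, 0 higher), total count scaling gave 3 lower and 2 higher, limma on TPM gave 1 lower with a pseudocount of 1 and 0 with a pseudocount of 0.1 or with no filter, the Wald test of DESeq2 gave 2 higher, and DESeq2 size factors, no low-count filter, the 2 groups alone and protein-coding nuclear genes alone each gave 1 higher. With 1 library left out, the count lay between 0 and 9 lower and between 0 and 1 higher. For TSA against DMSO (5 lower, 2 higher), total count scaling gave 1 lower and 11 higher, limma on TPM gave 0 lower and 14, 12 and 10 higher with a pseudocount of 1, of 0.1 and with no filter, and no low-count filter and the 2 groups alone each gave 3 lower. With 1 library left out, these were 1 to 5 lower and 1 to 4 higher. For GSK-343 against DMSO (4 lower, 12 higher), total count scaling gave 1 lower and 19 higher, and limma on TPM gave 0 lower in each form. With 1 library left out, these were 2 to 4 lower and 6 to 13 higher. The members called in every fit that left out 1 library were 0 of 8 for TSA against GSK-343, 2 of 7 for TSA against DMSO (Fasn and Acss2) and 5 of 16 for GSK-343 against DMSO (Srebf2, Tm7sf2, Acly, Fads1 and Acsl3). Where a group is left with 1 library, that library is assumed to vary like the others.

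The correlations of same-numbered libraries' deviations from their group means were between −0.094 and 0.040. In a group of 2 libraries the deviations mirror each other, so these few values cannot show whether shared replicate numbers pair the samples. With the replicate number as a block, 4 members were lower and 1 higher with TSA than with GSK-343, 3 were lower with TSA than in DMSO, and 2 were lower and 7 higher with GSK-343 than in DMSO.

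Depth limits the precision most for Acacb, Mvk, Pmvk, Mvd, Ebp, Sc5d and Fads2, whose mean was under 10 CPM in at least 1 group. Comparisons with DMSO cannot be told apart from the difference in read layout.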
